A study of Mus musculus with 22 samples.

Results

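The comparison of Tau P301S mice with wild type (WT) littermates at 12 months was made on 10 cortex libraries, 6 of Tau P301S and 4 of WT mice, out of 22 libraries in the series, and on all 15192 genes of the 12-month score table. It was defined by genotype and age alone, with no value of the table used to choose libraries or genes. The Tau P301S animals were offspring of Tau P301S +/- mice mated to WT mice, and the WT animals were littermates from such matings. No source used here gives the promoter of the tau transgene, the founder line, sex or strain background. The series also holds 12 libraries at 6 months (dTg, 5xFAD, N40K and WT, 3 each), which are used below only for values set side by side. N40K mice carry a fragment of U1-70K, 5xFAD mice carry amyloid transgenes and dTg mice carry both. Nothing in the labels says that equal replicate numbers mark shared litters or days, so each p-value measures the spread between these animals only.

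Tau is a microtubule-binding protein of neurons, and the P301S mutation is known from inherited frontotemporal dementia, in which tau aggregates inside neurons and glia react around them. In Alzheimer disease, proteins of the U1 small nuclear ribonucleoprotein (snRNP), the particle that recognises 5′ splice sites, are also known to collect in insoluble deposits, and this series asks by its title how U1 snRNP dysfunction acts in the brain. Introns that are not removed usually keep a transcript in the nucleus or expose it to decay. The unspliced share of a gene's RNA is not a measure of its expression level, and a change in it need not come from splicing alone.

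What was measured is the Sd score, a ratio per gene and library, read here as a measure of splicing deficiency that grows with unspliced signal. No source used here gives its formula or any read count, so depth is unknown and no counting interval is given. A score does not say how much transcript was present, so neither the expression of the transgene nor the tissue identity of a library could be checked from it, and a change in the number of cells of a type cannot be told apart from a change within those cells. Scores were deposited to 3 decimals. The mean score was under 0.02 in 8673 genes (57.1%), where 1 step of 0.001 is a sizeable part of the value, and 0.02 or more in the other 6519 genes (42.9%). All changes are Tau P301S minus WT on the log2(score + 0.002) scale.

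Scores over all genes lay in the same range in both genotypes. The library medians were 0.014 at the lowest, 0.0145 in the middle and 0.016 at the highest in the 6 Tau P301S libraries, and 0.013, 0.013, 0.017 and 0.017 in WT replicates 1 to 4. The Tau P301S medians all lay between the lower and the higher WT pair. They averaged 0.0147 ± 0.000816 (SD, n = 6) in Tau P301S and 0.015 ± 0.00231 (SD, n = 4) in WT mice, a difference of −0.02 on the log2 scale (two-sided exact permutation p = 0.829, 210 regroupings, adjusted p = 0.829 over 2 summaries). The upper quartile was 0.0438 ± 0.00194 in Tau P301S and 0.0467 ± 0.00443 in WT mice (−0.09, exact permutation p = 0.238, adjusted p = 0.476). The sign of the median difference turned to 0.04 without WT replicate 3 and likewise without WT replicate 4, so no shift over all genes was detectable with these libraries. Over the genes with a mean score of 0.02 or more alone, the median differed by −0.0822 (exact permutation p = 0.181) and the upper quartile by −0.0936 (exact permutation p = 0.0524), both lower in Tau P301S and both short of the threshold.

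**Figure D1:**
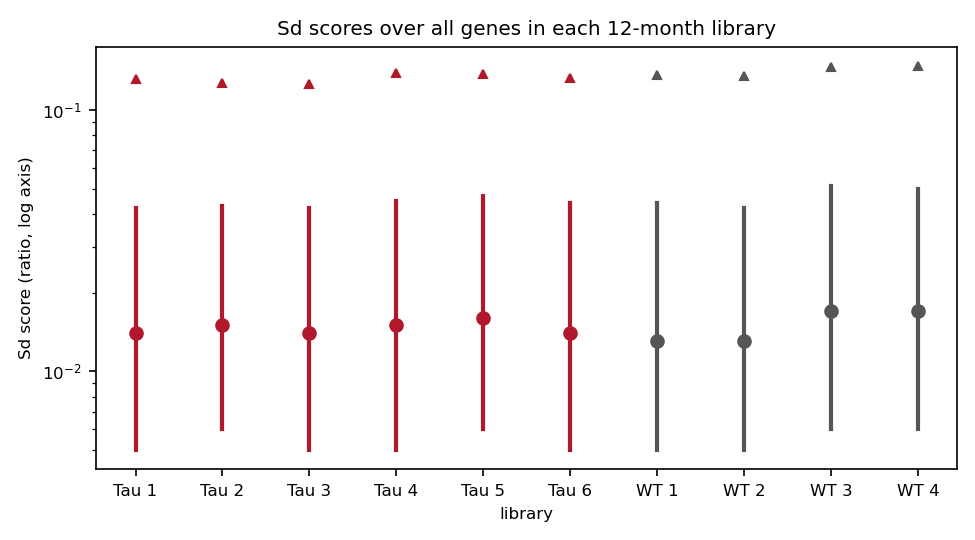
Sd scores over 15192 genes in each 12-month library, Tau P301S replicates at left in red and WT replicates at right in grey, on a log axis. Circles are medians, bars run between the lower and upper quartiles and triangles mark the 90th percentile; WT replicates 1 and 2 have the lowest medians (0.013) and WT replicates 3 and 4 the highest (0.017).

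Some libraries stood apart within their genotype. WT replicates 1 and 2 and WT replicates 3 and 4 formed the low and the high pair of medians. On the first principal component, which held 25.7% of the variance, Tau P301S replicates 2 (20.9) and 3 (27.1) lay at one end and WT replicate 2 (−30.3) at the other. Libraries correlated across genes with r from 0.949 to 0.986 (45 pairs). The labels give no batch for any of this. The counts below are therefore also given without these libraries where that moves them.

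Only 1 gene passed the adjusted threshold (limma, adjusted p under 0.05; 1 of 15192 genes, 0.00658%), and it did so on a single step of the last decimal. Astn1, a neuronal membrane protein of glia-guided migration, was listed at 0.001 in all 6 Tau P301S libraries and at 0 in all 4 WT libraries. With no spread in either group its adjusted p was 0.000103, and it missed the threshold with a pseudocount of 0.01 (0.0651) and after each library was centred on its median (0.127). It was chosen for mention after its value was seen. At an unadjusted p under 0.05 stood 1258 genes (8.28%), of which 384 were higher (2.53%) and 874 lower (5.75%) in Tau P301S mice. Among genes with a mean score of 0.02 or more, 150 were higher (2.3%) and 486 lower (7.46%). After centring each library on its median the numbers over all genes were 576 higher and 832 lower. The excess of lower over higher genes depended on the WT pairs: without WT replicates 1 and 2 the numbers were 139 higher and 2488 lower, and with centring as well 870 higher and 508 lower.

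A stricter description counts the genes whose Tau P301S libraries all lay on one side of all WT libraries. There were 44 such genes higher in Tau P301S (0.29%) and 151 lower (0.994%), 195 in all (1.28%). Among genes with a mean score of 0.02 or more these were 25 higher (0.383%) and 114 lower (1.75%) of 6519, and among the other 8673 genes 19 higher (0.219%) and 37 lower (0.427%). After centring each library on its median, 128 of the 151 lower genes and 41 of the 44 higher genes had an unadjusted p under 0.05 in the same direction. Without WT replicates 1 and 2 and with centring, all 44 higher genes did so, but only 61 of the 151 lower genes, and 137 of the 151 were still below 0. A few of these genes are listed under more than 1 name (Ripk2 and Rip2, Polg2 and MtPolB, Ebf4 and O/E-4S), so the counts are of rows of the table. For a gene with no difference and no tied scores, 1 of 210 regroupings of the libraries gives full separation in a given direction, a fraction of 0.00476. The deposited scores are rounded, and ties can only make full separation rarer. The fraction is therefore an upper limit, and the rate with ties was not measured. Over all genes the lower share (0.994%) lay above this limit. The higher share (0.29%) lay under it, which decides nothing because the rate with ties is unknown. Genes are not independent, so the counts are a description only.

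**Figure D2:**
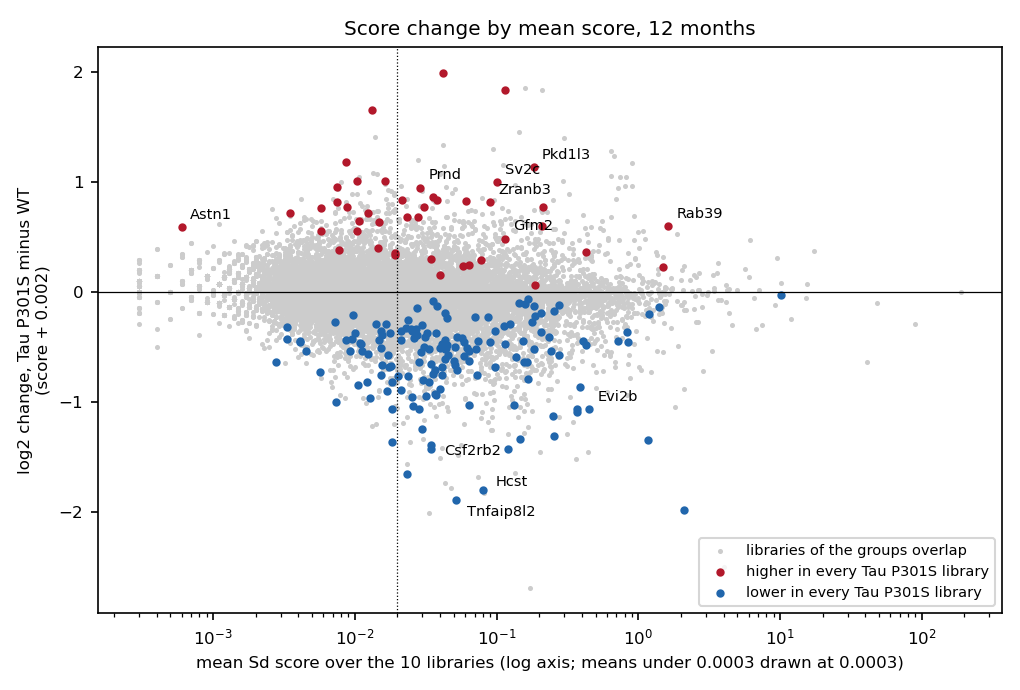
Mean Sd score of each gene over the 10 libraries (log axis) against its log2 change, Tau P301S minus WT, with the dotted line at a mean score of 0.02. Red points are the 44 genes higher in every Tau P301S library than in every WT library, blue points the 151 lower ones, and grey points all others; the blue points outnumber the red ones most clearly to the right of the dotted line.

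The tau gene and genes whose promoters are used in neuronal transgenes were looked at first, though the promoter of this transgene is not known. Mapt, the mouse gene for tau, had a score of 0.004 to 0.005 in the Tau P301S libraries (median 0.005), against 0.002, 0.002, 0.003 and 0.004 in WT libraries. The groups touched at 0.004, in Tau P301S replicate 2 and WT replicate 4. The change was 0.54 ± 0.117 (SE) with an adjusted p of 0.302, so it did not pass, and no source used here says how reads of the human tau transgene were assigned. Prnp, the prion protein gene, whose promoter drives several tau transgenes, had 0.003 to 0.005 (median 0.004) in Tau P301S libraries, against 0.002, 0.002, 0.003 and 0.003 in WT libraries (0.37, adjusted p = 0.436). Thy1, the source of another neuronal promoter, had 0.006 to 0.007 (median 0.006) in Tau P301S libraries, against 0.006, 0.005, 0.007 and 0.007 in WT libraries. Its groups overlapped fully, at −0.01 (adjusted p = 1), and the sign turned to 0.01 after centring.

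Prnd, which encodes the prion-like protein doppel and lies next to Prnp, had the smallest p among genes with a mean score of 0.02 or more. Its score was 0.03 at the lowest, 0.035 at the median and 0.046 at the highest in Tau P301S libraries, against 0.016, 0.016, 0.019 and 0.02 in WT libraries. Every Tau P301S library exceeded every WT library by at least 0.01. The means were 0.0362 ± 0.00553 (SD, n = 6) in Tau P301S and 0.0178 ± 0.00206 (SD, n = 4) in WT mice, a change of 0.94 ± 0.114 (SE, 1.92-fold) with an adjusted p of 0.065 over all genes. It passed when only genes with a mean score of 0.02 or more were fitted (0.048), as did Tnfaip8l2 below and a clone-named gene, and when Tau P301S replicate 3, its highest library, was left out (0.0356). Other single omissions gave 0.0643 to 0.292. With replicate number as a block in the limma fit the adjusted p was 0.448. Among neighbours of Prnd on the RefSeq map, Rassf2 had 0.009 ± 0.0019 in Tau P301S and 0.00775 ± 0.000957 in WT mice (SD, n = 6 and 4, adjusted p = 0.804), and Adra1d 0.00117 ± 0.000408 and 0.00125 ± 0.0005 (adjusted p = 0.975). Next to Mapt, Crhr1 had 0.006 ± 0.000894 in Tau P301S and 0.00675 ± 0.0015 in WT mice (adjusted p = 0.848).

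None of the other genes that follow passed the adjusted threshold in the fit of all genes. Predicted and clone names were left out of the ranking by p. Besides Prnd, the 5 higher genes with the smallest p among those with a mean score of 0.02 or more were Zranb3, Gfm2, Rab39, Pkd1l3 and Sv2c. Zranb3, a helicase that remodels stalled replication forks, had 0.085 to 0.121 (median 0.117) in Tau P301S libraries, against 0.062, 0.053, 0.064 and 0.067 in WT libraries (0.81, adjusted p = 0.113). Gfm2, a mitochondrial ribosome recycling factor, had 0.112 to 0.14 (median 0.132) in Tau P301S libraries, against 0.084, 0.102, 0.093 and 0.09 in WT libraries (0.48, adjusted p = 0.174). In both genes the lowest Tau P301S library was above the highest WT library.

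Rab39, a small GTPase of vesicle traffic, was the gene of highest score in this set. It had 1.579 to 2.099 (median 1.92) in Tau P301S libraries, against 1.32, 1.398, 0.977 and 1.318 in WT libraries (0.60, adjusted p = 0.291). Sv2c, a synaptic vesicle glycoprotein, had 0.093 to 0.162 (median 0.13) in Tau P301S libraries, against 0.071, 0.075, 0.042 and 0.061 in WT libraries (1.00, adjusted p = 0.291). Pkd1l3, a polycystin-family membrane protein, had 0.174 to 0.357 (median 0.202) in Tau P301S libraries, against 0.1, 0.101, 0.119 and 0.093 in WT libraries (1.13, adjusted p = 0.291). Its highest values were in Tau P301S replicates 2 (0.357) and 3 (0.308), the libraries that stood apart on the first component.

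**Figure D3:**
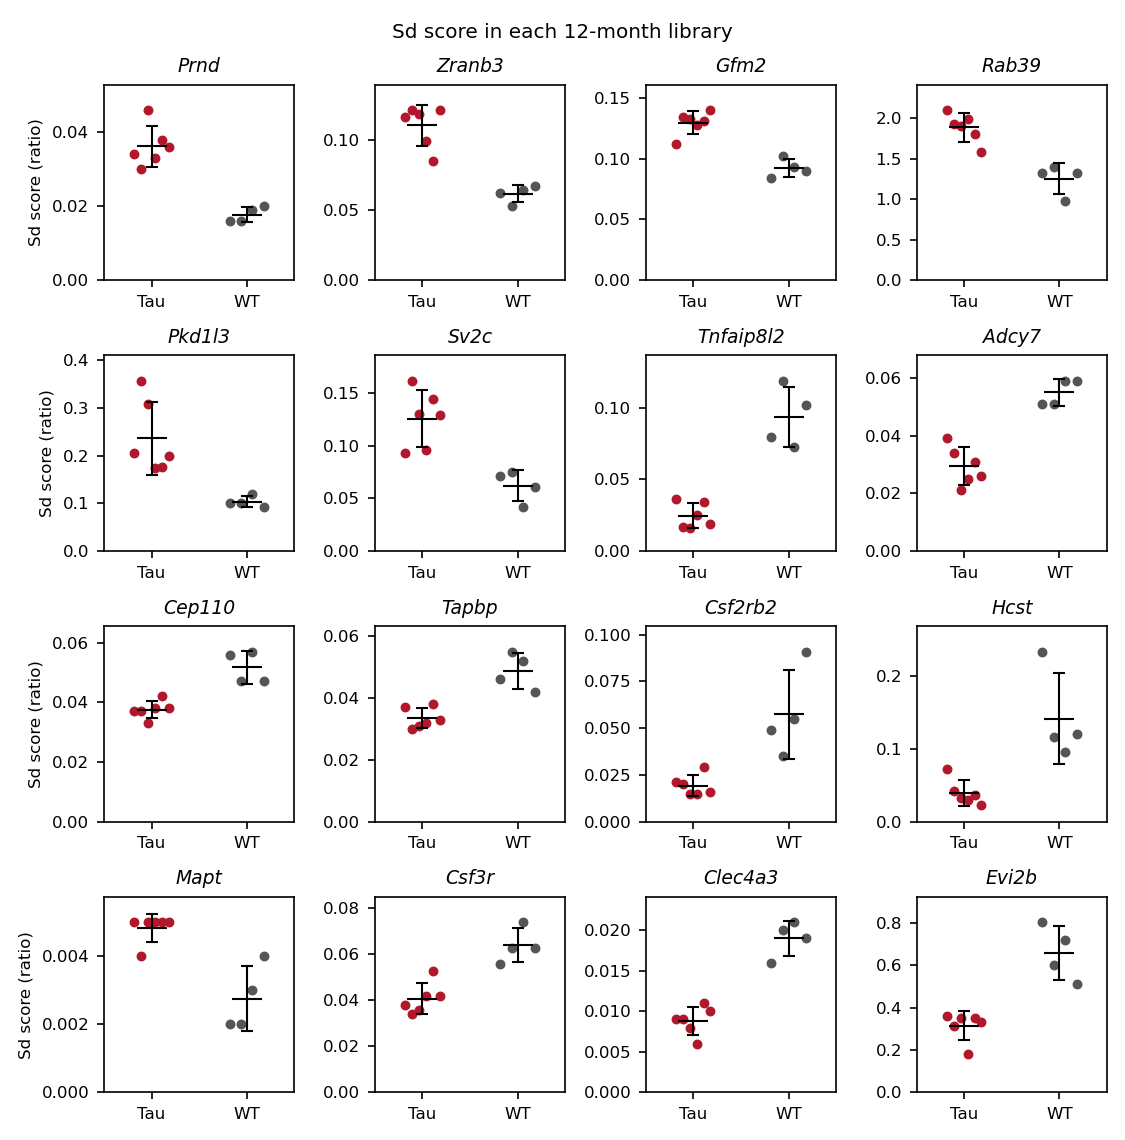
Sd score of 16 genes in each 12-month library, with Tau P301S libraries at left in red, WT libraries at right in grey, and the mean and SD of each group in black; every axis starts at 0. In each panel except Mapt, where the groups touch at 0.004, the 6 Tau P301S libraries and the 4 WT libraries do not overlap.

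Among the 6 lower genes taken by smallest p, the change was largest in Tnfaip8l2 (TIPE2), an inhibitor of innate and adaptive immune signalling expressed in leukocytes. Its score was 0.016 at the lowest, 0.022 at the median and 0.036 at the highest in Tau P301S libraries, against 0.08, 0.119, 0.073 and 0.102 in WT libraries. The highest Tau P301S library (0.036) lay well under the lowest WT library (0.073). The change was −1.89 ± 0.254 (SE, 0.27-fold, adjusted p = 0.11; 0.048 among genes with a mean score of 0.02 or more). Hcst, which encodes DAP10, a signalling adaptor of natural killer and myeloid cells, had 0.023 to 0.073 (median 0.034) in Tau P301S libraries, against 0.234, 0.116, 0.096 and 0.121 in WT libraries (−1.80, adjusted p = 0.291). The single WT library at 0.234 was replicate 1, and the change was −1.54 without it.

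Csf2rb2, a mouse beta chain of the interleukin 3 receptor, had 0.015 to 0.029 (median 0.018) in Tau P301S libraries, against 0.049, 0.035, 0.055 and 0.091 in WT libraries (−1.43, adjusted p = 0.291). Adcy7, an adenylate cyclase found in myeloid and lymphoid cells, had 0.021 to 0.039 (median 0.0285) in Tau P301S libraries, against 0.051, 0.051, 0.059 and 0.059 in WT libraries (−0.89, adjusted p = 0.291). Tapbp (tapasin), which loads peptides onto MHC class I, had 0.03 to 0.038 (median 0.0325) in Tau P301S libraries, against 0.046, 0.055, 0.052 and 0.042 in WT libraries (−0.51, adjusted p = 0.291). The centrosomal gene Cep110 had 0.033 to 0.042 (median 0.0375) in Tau P301S libraries, against 0.056, 0.047, 0.057 and 0.047 in WT libraries (−0.44, adjusted p = 0.291). With predicted and clone names left out, these 6 lower genes were the first by p with a mean score of 0.02 or more. In all 6 the libraries of the genotypes were separate, which a choice by smallest p favours.

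Further genes were picked by hand from the 151 separate lower genes (0.994% of all genes) after their values were seen, as genes known from leukocytes, so they give no share of leukocyte genes that were lower. Other myeloid genes, from the gene lists described below, did not separate: Ctss was at 0.001 in all 10 libraries, and C1qc (−0.01, adjusted p = 1), Aif1 (−0.11, adjusted p = 0.79), Irf8 (−0.33, adjusted p = 0.674) and Cx3cr1 (−0.22, adjusted p = 0.674) each had an unadjusted p above 0.05. Clec4a3, a C-type lectin receptor of myeloid cells, had 0.006 to 0.011 (median 0.009) in Tau P301S libraries, against 0.016, 0.02, 0.021 and 0.019 in WT libraries (−0.965, adjusted p = 0.11). Its mean score lies under 0.02, and the nearest libraries of the genotypes differ by several steps of 0.001. Evi2b, a leukocyte membrane protein, had 0.183 to 0.361 (median 0.342) in Tau P301S libraries, against 0.802, 0.601, 0.717 and 0.512 in WT libraries (−1.07, adjusted p = 0.291).

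Separate libraries with lower Tau P301S scores were also found in Csf3r, the granulocyte colony-stimulating factor receptor (0.0408 ± 0.00677 in Tau P301S and 0.064 ± 0.00744 in WT mice, SD, n = 6 and 4), and in Fermt3 (kindlin-3), an integrin activator of blood cells (0.024 ± 0.0021 and 0.0323 ± 0.00299). Hvcn1, a voltage-gated proton channel of phagocytes, had 0.0197 ± 0.00712 in Tau P301S and 0.0415 ± 0.00173 in WT mice. Card9, an adaptor of C-type lectin receptors, had 0.174 ± 0.0685 in Tau P301S, against 0.282, 0.366, 0.423 and 0.38 in WT libraries. The interferon regulatory factor gene Irf1 had 0.134 ± 0.0241 in Tau P301S and 0.207 ± 0.023 in WT mice, and Ifi27l2a, an interferon-induced gene, 0.0263 ± 0.00615 and 0.0518 ± 0.0103. The adjusted p of these genes (limma) ranged from 0.291 to 0.379, so none was past the threshold over all genes. They were picked because their libraries were separate, so the separation adds no support. Not all immune genes lay lower: Slc15a3, a lysosomal peptide transporter of immune cells, had 0.0045 ± 0.000837 in Tau P301S and 0.002 ± 0.000816 in WT mice, and Cd83, an activation marker, 0.0035 ± 0.00105 and 0.00125 ± 0.0005, with libraries touching at 0.002.

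The promoter windows of 3 of these lower genes are shown to let the GAGGAAGT motif, which holds the core bound by the myeloid factor PU.1, be seen in context: the 2 with a match among the 7 lower genes searched singly, and Tnfaip8l2 as one without. Each is 300 bases of the transcribed strand from RefSeq (GRCm38.p6), 250 before and 50 after the annotated start, with a match on either strand in capitals; both matches are of the reverse complement and lie after the start.
Tnfaip8l2, chr3:95142305-95142604, minus strand: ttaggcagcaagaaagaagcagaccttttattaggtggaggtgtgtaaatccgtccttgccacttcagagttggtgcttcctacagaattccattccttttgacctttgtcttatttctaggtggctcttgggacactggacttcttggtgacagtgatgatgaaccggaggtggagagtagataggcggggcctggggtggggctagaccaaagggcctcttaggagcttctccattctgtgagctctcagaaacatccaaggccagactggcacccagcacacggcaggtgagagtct
Csf2rb2, chr15:78305672-78305971, minus strand: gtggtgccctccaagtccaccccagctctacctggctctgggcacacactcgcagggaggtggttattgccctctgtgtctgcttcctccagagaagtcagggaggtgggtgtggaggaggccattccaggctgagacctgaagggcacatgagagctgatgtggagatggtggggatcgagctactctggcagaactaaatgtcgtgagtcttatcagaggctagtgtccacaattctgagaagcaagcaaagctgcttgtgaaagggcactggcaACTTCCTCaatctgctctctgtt
Evi2b, chr11:79523713-79524012, minus strand: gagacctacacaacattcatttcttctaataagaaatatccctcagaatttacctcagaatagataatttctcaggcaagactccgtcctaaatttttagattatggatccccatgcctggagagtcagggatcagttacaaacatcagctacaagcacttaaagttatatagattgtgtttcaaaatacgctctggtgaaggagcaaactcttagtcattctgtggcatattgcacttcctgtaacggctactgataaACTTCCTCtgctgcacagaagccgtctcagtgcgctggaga
The match began at base 278 of the Csf2rb2 window and at base 260 of the Evi2b window, and Tnfaip8l2, Hcst, Clec4a3, Csf3r and Fermt3 had none. GAGGAAGT on either strand was found in 7 of the 109 lower genes with a window in the table (6.42%), in 3 of the 29 higher genes (10.3%) and in 392 of 11221 genes of the 12-month table (3.49%). A match is a description of these letters only.

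Gene lists put these values in a wider frame. The lists were chosen with earlier results of these data known, so their shares are descriptions only. No member of any of the 23 lists passed the adjusted threshold, so lists are described by members at an unadjusted p under 0.05, beside 2.53% higher and 5.75% lower over all genes, and by their median change, beside −0.02 over all genes. In the list of complement, MHC and interferon-response genes, 5 of 26 members were lower (19.2%) and none higher, 21 of 26 changes were below 0 (54.1% over all genes) and the median was −0.13. C4a, a complement C4 gene, had 0.166 to 0.186 (median 0.172) in Tau P301S libraries, against 0.2, 0.231, 0.195 and 0.194 in WT libraries. The groups were separate, at −0.22 (adjusted p = 0.396), but C4a and C4b share most of their sequence, so reads may be split between them, and C4b had 0.0938 ± 0.00343 in Tau P301S and 0.0975 ± 0.00436 in WT mice. Cd74, the MHC class II invariant chain, had 0.001 to 0.002 (median 0.002) in Tau P301S libraries, against 0.003, 0.008, 0.003 and 0.003 in WT libraries (−0.64, adjusted p = 0.447). Ddx58 (RIG-I), a sensor of viral RNA, had 0.0248 ± 0.00845 in Tau P301S and 0.0532 ± 0.0172 in WT mice (−1.05, adjusted p = 0.403), with libraries overlapping between 0.033 and 0.034. With WT replicates 1 and 2 left out and centring, 1 member was lower.

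Of 23 genes of disease-associated microglia, 6 were lower (26.1%), 1 was higher and the median was −0.07. Trem2, the receptor whose variants raise Alzheimer risk, had 0.04 to 0.044 (median 0.0415) in Tau P301S libraries, against 0.048, 0.058, 0.047 and 0.046 in WT libraries. Its libraries were separate, at −0.235 (adjusted p = 0.414). The lysosomal gene Cd68 had 0.146 ± 0.0207 in Tau P301S and 0.177 ± 0.0106 in WT mice (−0.28, adjusted p = 0.525), the TREM2 adaptor Tyrobp 0.00383 ± 0.000408 and 0.005 ± 0.000816 (adjusted p = 0.48), the lysosomal protease gene Ctsz 0.00467 ± 0.000816 and 0.00675 ± 0.000957 (adjusted p = 0.379) and Gpnmb 0.00517 ± 0.000753 and 0.00725 ± 0.000957 (adjusted p = 0.379). Csf1, a growth factor of microglia, was the higher member, with 0.0303 ± 0.0032 in Tau P301S and 0.0202 ± 0.0067 in WT mice (0.58, adjusted p = 0.436). The count of 6 was 2 with WT replicates 1 and 2 left out and centring. Of 18 homeostatic microglial genes 2 were lower (11.1%), among them Ptprc, the leukocyte phosphatase CD45, with a median of −0.11. P2ry12 (0.03), Tmem119 (−0.11) and Csf1r (−0.115), which define microglia, each had an unadjusted p above 0.05.

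In the lysosome, autophagy and proteostasis list 4 of 39 genes were lower (10.3%), among them Hexa, a subunit of beta-hexosaminidase, with 0.002 to 0.004 in Tau P301S libraries, against 0.005, 0.005, 0.006 and 0.005 in WT libraries (−0.46, adjusted p = 0.379). Of 39 Alzheimer and tauopathy genes 6 were lower (15.4%) and 2 higher. Plcg2, a phospholipase of microglial receptor signalling, had 0.003 to 0.004 (median 0.003) in Tau P301S libraries, against 0.005, 0.005, 0.006 and 0.005 in WT libraries, so the groups were separate, by 1 step of 0.001 at the nearest (−0.45, adjusted p = 0.291). Bace1, the beta-secretase gene, was on the higher side with 0.0165 ± 0.00568 in Tau P301S and 0.01 ± 0.00374 in WT mice (0.63, adjusted p = 0.577). Apoe had 0.00783 ± 0.000983 in Tau P301S and 0.00825 ± 0.0015 in WT mice (adjusted p = 0.943). These counts were 0 for the lysosomal and 2 for the Alzheimer list with WT replicates 1 and 2 left out and centring, against 11 in both lists with these libraries left out and no centring.

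**Figure D4:**
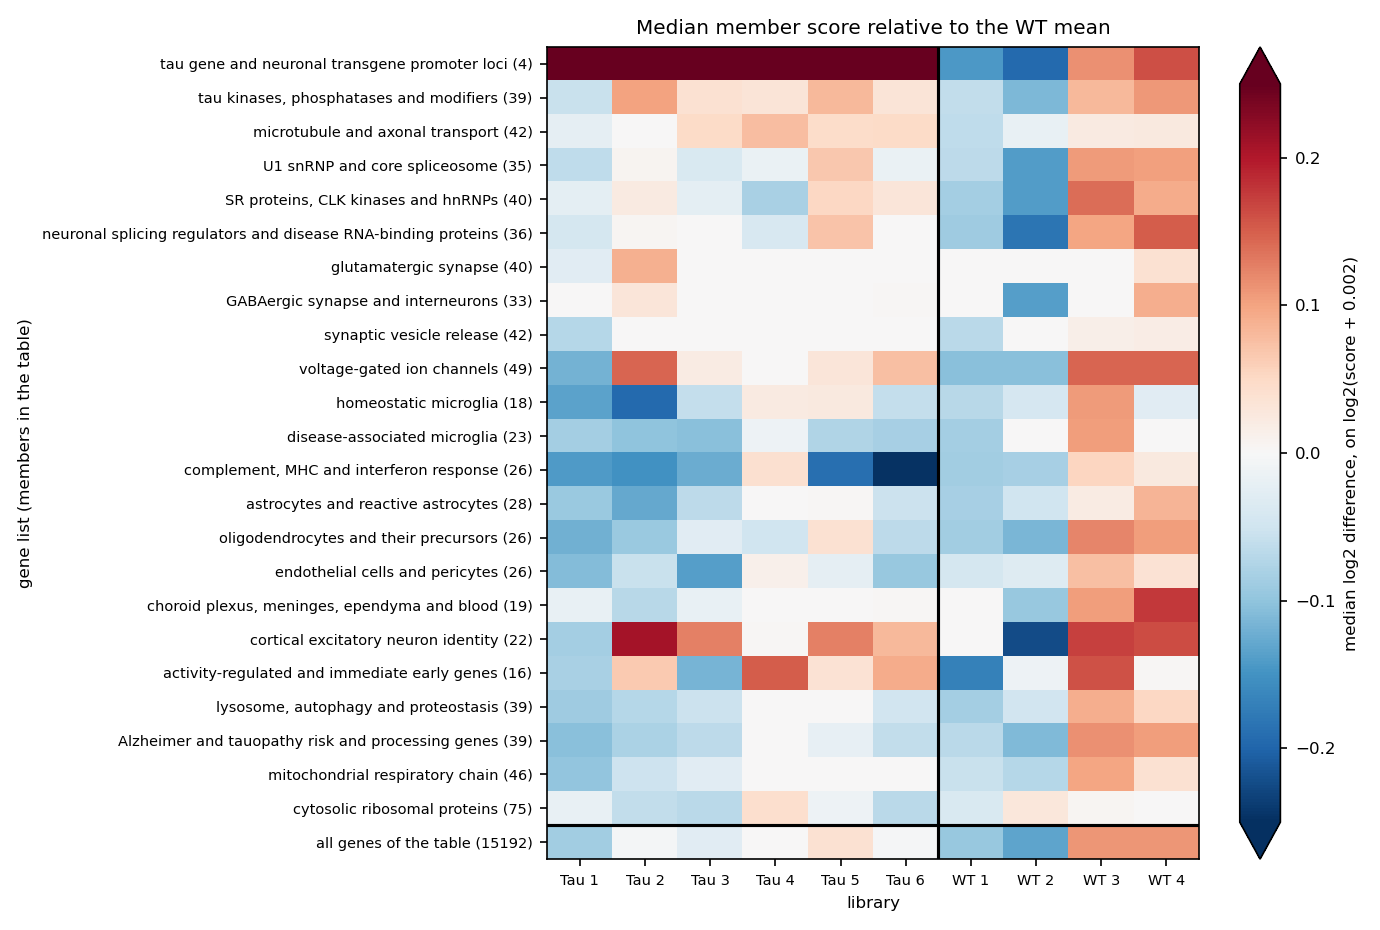
Median log2 difference of the members of each list from the WT mean, by library, Tau P301S at left and WT at right of the vertical line, with the number of members in brackets and all 15192 genes in the bottom row; colours end at 0.25 on either side. The complement, MHC and interferon row is below 0 in 5 of the 6 Tau P301S libraries (−0.247 to −0.125) and at 0.04 in Tau P301S replicate 4. In WT replicates 1 to 4 the same row is at −0.0874, −0.0834, 0.0533 and 0.0238. The row of all genes runs from −0.09 to 0.04 in Tau P301S and from −0.13 to 0.11 in WT libraries.

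Other glial and vascular lists also had medians below 0. Of 28 astrocyte genes 3 were lower (10.7%; median −0.06), and Cd44, the hyaluronan receptor that marks reactive astrocytes, had 0.006 to 0.041 (median 0.0105) in Tau P301S libraries, against 0.081, 0.026, 0.053 and 0.081 in WT libraries (−2.01, adjusted p = 0.368). Tau P301S replicate 1 (0.041) lay above WT replicate 2 (0.026). Gfap, the astrocyte filament gene, had 0.0105 ± 0.00138 in Tau P301S and 0.0105 ± 0.00129 in WT mice. Of 26 endothelial and pericyte genes 3 were lower (11.5%; median −0.08), with the libraries of Ly6c1 separate (0.00733 ± 0.00163 in Tau P301S and 0.0105 ± 0.000577 in WT mice). Of 26 oligodendrocyte genes 1 was lower (3.85%; median −0.05), Cspg4 of the precursors. In the list of choroid plexus, meninges, ependyma and blood none of 19 was higher or lower (limma, unadjusted p under 0.05), with a smallest p of 0.202 in Tmem212.

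Neuronal lists had medians near or above 0. The median was 0.07 for cortical excitatory neuron identity (22 genes), 0.05 for voltage-gated ion channels (49), 0.01 for the glutamatergic synapse (40) and 0 for the GABAergic synapse (33) and synaptic vesicle release (42). In these 5 lists 1 gene was higher, Sv2c, and 2 were lower, the channel gene Cacna1g (0.0182 ± 0.00194 in Tau P301S and 0.0215 ± 0.00238 in WT mice) and the scaffold gene Shank3 (0.00883 ± 0.000408 and 0.00975 ± 0.0005). The lists also differ in score. A mean score of 0.02 or more was found in 4 of 40 glutamatergic and 3 of 22 cortical excitatory genes. It was found in 6 of 28 astrocyte genes and 12 of 26 complement, MHC and interferon genes. Over all 15192 genes the change fell as the mean score rose (Spearman rho −0.169). Whether the list medians follow from this was not tested. Cortical excitatory identity genes had their lowest library median in WT replicate 2 (−0.22) and their highest in Tau P301S replicate 2 (0.21), both libraries that stood apart. Among 39 tau kinases, phosphatases and modifiers 2 were higher, Crebbp (0.23) and Mapk10 (0.31), and 2 lower, Ep300 (−0.35) and the tau kinase Mark1 (−0.27). Crebbp and Ep300 encode the related acetyltransferases CBP and p300. Of 42 microtubule and axonal transport genes the kinesin Kif1b was higher (0.215) and the kinesin Kif3a lower (−0.31). Of 16 activity-regulated genes Nr4a3 was higher, with 0.004 to 0.006 (median 0.005) in Tau P301S libraries, against 0.002, 0.002, 0.004 and 0.003 in WT libraries (0.57, adjusted p = 0.344).

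Genes of the splicing machinery, the subject of the series, had list medians near 0. Among 35 U1 snRNP and core spliceosome genes 2 were lower (5.71%) and none higher, with a median of −0.01, and the lower ones, Snrpe (0.004 ± 0.000894 in Tau P301S and 0.00575 ± 0.000957 in WT mice) and Snrpb (0.007 ± 0.000632 and 0.0085 ± 0.00129), encode Sm proteins. Snrnp70, the gene for U1-70K itself, had 0.043 to 0.051 (median 0.0475) in Tau P301S libraries, against 0.045, 0.043, 0.049 and 0.051 in WT libraries (0.02 ± 0.062 SE, adjusted p = 0.975). Of 40 SR proteins, CLK kinases and hnRNPs 3 were lower (7.5%) and none higher, with a median of 0.01. Srsf9 had 0.074 to 0.165 (median 0.142) in Tau P301S libraries, against 0.194, 0.182, 0.203 and 0.208 in WT libraries (−0.64, adjusted p = 0.501), and its lowest values were again in Tau P301S replicates 2 (0.098) and 3 (0.074). Srsf5 had 0.132 to 0.176 (median 0.169) in Tau P301S libraries, against 0.18, 0.191, 0.235 and 0.192 in WT libraries (−0.27, adjusted p = 0.525). Libraries were separate in both genes, 2 of the 40 members, beside 0.994% of all genes separate and lower. No member of the U1 snRNP and core spliceosome list was separate. None of 36 neuronal splicing regulators was higher or lower at an unadjusted p under 0.05 (limma), and the smallest p was 0.0648 in Rbfox1. Of 46 respiratory chain genes 1 was lower, Atp5d, and of 75 ribosomal protein genes 4 were lower (5.33%) and 1 higher, Rpl15 (0.15).

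The 6-month table allowed the same genes to be read beside the 5xFAD effect, averaged over N40K status, in other mice. The tables were made separately and share no library, so the values are set side by side with no test across them. Mean WT scores of some genes differed widely between the tables. Rab39 had 0.061 in the 6-month and 1.25 in the older WT mice. In the same order, Srsf5 had 0.00767 and 0.2, and Apoe 0.093 and 0.00825. Others lay close, as Prnd did (0.0173 and 0.0178). These genes were picked after their values were seen, and the cause was not tested. The counts and correlations below may therefore set unlike quantities side by side for some genes. Tnfaip8l2 (−1.39, adjusted p = 0.227) and Hcst (−1.14, adjusted p = 0.375), the genes of largest change among the 6 lower genes taken by p, were also the furthest below 0 in 5xFAD carriers among the 5 of these present in that table. Hvcn1 stood at −0.58 (adjusted p = 0.138), Hexa at −0.47 (0.267) and C4a at −0.33 (0.144), none of them past the threshold. Cd68, at −0.51, was among the 7 genes of 15705 (0.0446%) that passed in that contrast (adjusted p = 0.0265). Evi2b (0.48) and Csf3r (0.14) went the other way, and Prnd was at 0.07. Of the 151 lower genes, 123 were in the 6-month table, and 82 of these (66.7%) were below 0 in 5xFAD carriers, beside 5729 of 12948 (44.2%) over all genes in both tables. Of the 34 higher genes present 13 (38.2%) were below 0. Over the 12948 genes the changes of Tau P301S and 5xFAD had a Pearson r of 0.144 (Spearman rho 0.101), given as a description because genes are not independent, and those of Tau P301S and N40K an r of 0.0791.

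**Figure D5:**
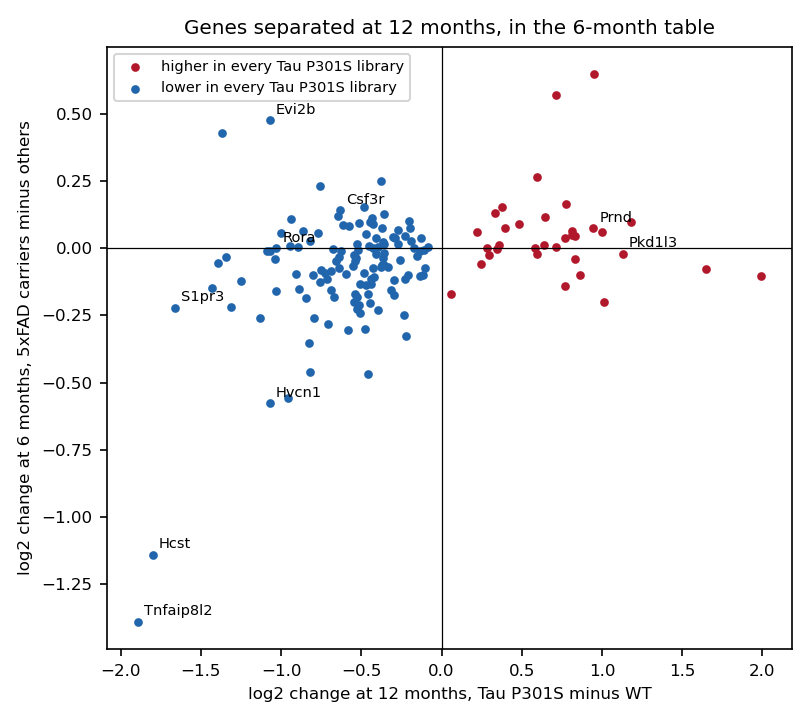
Log2 change at 12 months, Tau P301S minus WT, against log2 change at 6 months, 5xFAD carriers minus the other mice, for the genes whose 12-month libraries were separate and that are also in the 6-month table. Blue points are the 123 lower and red points the 34 higher genes; Tnfaip8l2 and Hcst lie apart at the lower left, and 82 of the 123 blue points are below 0 on the 6-month axis.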

How the data were processed

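RNA of mouse cortex was poly(A)-selected, with DNase digestion, and sequenced as stranded 100 bp paired-end libraries, per the labels' protocols. The authors deposited the Sd score as a ratio per gene and library to 3 decimals; CASAVA, STAR, BWA, bedtools 2.16.1 and the mm9 build are named in the submitters' processing notes. No source used here gives the score's formula, annotation or depth. The 12-month table had 15192 genes and no missing value.

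Scores were analysed as log2(score + 0.002), 0.002 being the 5th percentile of values above 0, without centring, by limma 3.58.1 in R 4.3.3 (lmFit and eBayes, no covariate, 8 residual degrees of freedom), with Benjamini-Hochberg adjustment over all genes and a threshold of 0.05. The same limma test was used at 6 months. Library summaries were compared by exact permutation tests. The script was checked on simulated data. The labels do not pair equal replicate numbers, so no block was used in the main fit. Correlations of same-numbered deviations were 0.00276, −0.041, 0.191 and −0.265, too few to exclude shared litters or days. Promoter windows came from RefSeq (GRCm38.p6), a later build than the scores, gene order from the RefSeq table and gene models from GENCODE M21. The members, lists and tests were chosen with earlier results of these data known.

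Up to 12 genes past the threshold in each direction were to be named where the mean score was 0.02 or more and libraries did not overlap. As none met this, 6 in each direction were taken by smallest p, then the member of smallest p in each list and all tau and promoter genes; predicted and clone names were counted only (12 higher and 19 lower among separate genes). All other genes named were chosen after their values were seen. A gene that the rule names is not reported here.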

Additional observations from a re-analysis of the deposited data

Results flagged for a closer look

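The rate of about 5% that chance gives for a library lying apart holds for unrounded values, and rounding to 0.001 makes ties. No comparison with that rate is therefore made. Single libraries lay apart from the others of their group in 11 of 78 groups of values looked at. In 9 of them the gap is 1 step of the deposited decimals: Mapt in Tau P301S replicate 2 (0.004), Thy1 in Tau P301S replicate 6 (0.007), Rbfox1 in Tau P301S replicate 3 (0.002) and in WT replicate 2 (0.001), Shank3 in Tau P301S replicate 1 (0.008) and in WT replicate 2 (0.009), Gad1 in WT replicate 2 (0.004), Hexa in WT replicate 3 (0.006) and Plcg2 in WT replicate 3 (0.006). The other 2 are larger than a step. C4a had 0.231 in WT replicate 2, above 0.194 to 0.2 in the other WT libraries, and Cd44 had 0.041 in Tau P301S replicate 1, above 0.006 to 0.016 in the other Tau P301S libraries.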

How the results depend on the processing

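The number of genes past the adjusted threshold (1, higher) was 0 after centring, with a pseudocount of 0.01, without genes whose group means lay within 0.001, without genes of no spread, with the replicate block and with WT replicates 1 and 2 left out and centring. It was 3 (2 higher, 1 lower) when only genes with a mean score of 0.02 or more were fitted, with or without centring, and all 3 then had such a mean. With limma's array weights it was 3, all higher, of which 2 had a mean score of 0.02 or more. Without single replicates it ranged from 1 to 5 (1 to 4 higher, 0 to 1 lower; 0 to 1 with a mean score of 0.02 or more). It was 6, all higher (1 with that mean), without Tau P301S replicates 2 and 3, and 83 (3 higher, 80 lower, 9 with that mean) without WT replicates 1 and 2.

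At an unadjusted p under 0.05 the 384 higher and 874 lower genes became 152 and 468 when only genes with a mean score of 0.02 or more were fitted, 192 and 411 with centring added, and 139 and 2488 without WT replicates 1 and 2, or 870 and 508 with centring added. Lower genes numbered 2088 with array weights and 554 without Tau P301S replicates 2 and 3. Over single omissions higher genes ranged from 237 (without WT replicate 1) to 572 (without WT replicate 4) and lower genes from 559 (without WT replicate 3) to 1283 (without WT replicate 2).

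The difference of library medians, −0.0199, ranged over single omissions from −0.0768 to 0.0369, the highest without WT replicate 3 or 4, and was −0.0337 paired by replicate number (exact p = 0.875). Thy1 turned to 0.0115 after centring, 0.0359 without WT replicate 3 or 4 (−0.085 to 0.0359 over single omissions), 0.00568 without Tau P301S replicates 2 and 3 and 0.0488 without WT replicates 1 and 2 with centring, where Shank3 (0.042) and C4a (0.0384) turned as well. The cause was not tested. Of 842 values of named genes under these settings, 823 kept their direction and side of the threshold. Almost all named genes were short of the threshold in the main fit, and a gene with separate libraries keeps its sign when libraries are left out. This count therefore does not measure how stable the changes are. The settings that leave out pairs of libraries or genes of no spread, and centring combined with another choice, were added after seeing the data. Rounding to 0.001 limits what genes of low score can show.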

Other observations

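Some further genes were picked by hand from the 195 whose libraries were separate (1.28% of all genes), after their values were seen; none passed the adjusted threshold, and they stand for no cell type or gene group. In the endothelial and pericyte list as a whole, 1 of 26 members was separate and 10 were above 0. S1pr3, a sphingosine 1-phosphate receptor, had 0.0123 ± 0.0068 in Tau P301S and 0.0398 ± 0.00608 in WT mice (SD, n = 6 and 4; −1.66). The Notch ligand gene Dll4 had 0.0328 ± 0.0064 in Tau P301S and 0.054 ± 0.00942 in WT mice, Emcn, an endothelial sialomucin, 0.00467 ± 0.00163, against 0.008, 0.013, 0.017 and 0.008 in WT libraries, and Ltbp2, a matrix protein, 0.0188 ± 0.00719, against 0.049, 0.045, 0.055 and 0.034 in WT libraries. The nuclear receptor Rora had 0.044 ± 0.0099 in Tau P301S and 0.0927 ± 0.0277 in WT mice. On the higher side stood the lipid kinase gene Pik3c2b (0.0192 ± 0.00857 in Tau P301S and 0.0045 ± 0.00173 in WT mice; 1.65), with Tau P301S replicates 2 (0.028) and 3 (0.032) highest, the chromatin gene Nsd1 (0.0152 ± 0.00422 and 0.00825 ± 0.0005) and Sdccag8 of the centrosome (0.0095 ± 0.00217 and 0.0045 ± 0.001). Of the genes of largest change, Adam2 had 0.648 to 1.228 in Tau P301S libraries, against 2.066, 3.391, 2.009 and 8.488 in WT libraries. WT replicate 4 (8.488) stood far above the other WT libraries. A ratio above 1 is not a share of RNA, and the read counts behind it are unknown.

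The 151 lower genes had a median mean score of 0.0396, against 0.0152 over all genes, and among the 136 with a gene model in GENCODE M21 (90.1%) a median of 12678 intron bases, against 23308 over 14002 genes (92.2%), with 9 introns in both. The 35 of the 44 higher genes with a model had a median of 54748 intron bases, but at 79.5% matched that check is void. Across genes, as a description, Spearman's rho with intron length was −0.55 for the mean score and 0.156 for the change (13964 genes).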
